A study of Mus musculus with 6 samples.

Results

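The genes described here encode the subunits of the PAF1 complex (Leo1, Paf1, Ctr9, Cdc73, Rtf1 and Wdr61) and the MYC and MAX transcription factors. These 8 genes were taken by name from the 47729 genes counted in each library, and each matched 1 gene identifier; Wdr61 carries the newer symbol Skic8 in later annotation. The PAF1 complex travels with RNA polymerase II along transcribed genes, where it helps the polymerase elongate and helps enzymes that modify histones to act on the chromatin behind it. MYC is a short-lived transcription factor that binds DNA as a dimer with MAX, most often at a sequence called the E-box, and it is known to interact with the PAF1 complex at its target genes. In endothelial cells MYC is known as a driver of growth and metabolism during vessel formation. The study examined LEO1 and MYC as protein partners of the long noncoding RNA LEENE, and the comparisons below ask how much mRNA for this complex, and for MYC and MAX, was measured when Leene was absent and when human LEENE was supplied.

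The study sequenced bulk RNA of CD144-enriched cells from mouse muscle, a fraction pulled out with magnetic beads against VE-cadherin (CD144) to enrich endothelial cells (ECs). Mice of all 3 groups ate a high-fat, high-sucrose diet, which by the study's methods began at 8 weeks of age and lasted 16 weeks. They then had hind limb ischemia (HLI) surgery on day 0 and an adenovirus in the muscle on days 1 and 4 by the labels (a later second day by the methods), with harvest after 1 week. Each group had 2 libraries. WT + GFP were WT mice whose adenovirus carried green fluorescent protein. KO + GFP were Leene-knockout mice given that same GFP adenovirus, and KO + LEENE were Leene-knockout mice given an adenovirus carrying human LEENE. Per the methods the mice were on the C57BL/6J background, and the knockout is a germline CRISPR deletion of the Leene locus on chromosome 14 that affects all cells of the mouse. The adenovirus was injected into muscle, so cells other than ECs could take it up, and it carries the human and not the mouse transcript. The labels do not give the sex of the mice or say whether a library came from 1 mouse or from a pool. The headers of the count files hold 1 sample number for both libraries of a group, so P values here measure the spread between libraries, which may be technical. Leene, human LEENE and GFP were not analysed here, so the genotype labels were not checked against the targeted gene.

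Libraries held 1770992 to 5602603 reads assigned to genes, and KO + LEENE had the smallest totals. Mitochondrially encoded genes took 50.1% to 50.9% of reads in WT + GFP and 33.6% to 34.3% in the other 4 libraries. The difference between libraries of a group was 1.17 to 1.23 times counting noise (median squared difference over genes). Among 8903 genes tested with edgeR, 70.1% were called at an adjusted P under 0.05 in KO + GFP against WT + GFP, 67.8% in KO + LEENE against KO + GFP and 70.7% in KO + LEENE against WT + GFP, so a call by itself did not set a gene apart. Scaling was by TMM, which assumes that most genes do not differ between libraries, and its factors ran from 0.66 to 1.52. With library size as the only scaling the all-gene median of the log2 fold change moved from -0.09 to -0.57 in the first of these comparisons, from -0.01 to 1.07 in the second and from -0.11 to 0.50 in the third, so changes below are relative to the TMM scale. The summed level of 11 endothelial markers was 434.9 to 457.9 CPM (reads scaled to 1 common library total, here after TMM) for WT + GFP, 3665 to 3673 for KO + GFP and 190 to 206.6 for KO + LEENE, and all 11 had reads in each group. These members differed in direction: of the 9 tested in KO + GFP against WT + GFP 3 were higher and 3 lower (3 and 4 with library size only). The KO + GFP sum came mostly from Emcn (mean 3346 CPM, log2 fold change 10.27), while Flt1 (-6.14) and Kdr (-5.69) were lower. Cdh5, which encodes CD144 itself, had 332 and 283 reads for WT + GFP, 322 and 196 for KO + GFP, then 5 and 18 for KO + LEENE. Summed fibroblast markers (7 genes) were 61.18 to 65.46 CPM in WT + GFP, with Dpt at 0, 17630 to 19120 in KO + GFP, with Lum and S100a4 at 0, and 45.47 to 47.96 in KO + LEENE, with Lum, Dpt and S100a4 at 0. In KO + GFP nearly all of this sum was Dcn and Col1a2 (log2 fold change 10.21 and 9.13 against WT + GFP), while Pdgfra was not called (-0.16) and Col1a1 was 0.86. With library size only Pdgfra was called lower (-0.65) and Col1a1 was not called (0.37). Summed macrophage markers (8 genes) were 64.66 to 76.2, 1143 to 1289 and 9.98 to 11.99 CPM, respectively, with Cd68 at 0 in WT + GFP, Itgam in KO + GFP and both in KO + LEENE. Of the 5 tested in KO + GFP against WT + GFP 4 were higher, and Ptprc was lower (-2.83). Summed mural markers (6 genes) were 3.58 to 3.94, 4.67 to 6.80 and 25.1 to 32.5 CPM, with Acta2 and Tagln at 0 in KO + GFP. Summed skeletal muscle markers (8 genes) were 5.11 to 8.34, 27.2 to 30.5 and 20.3 to 22.5 CPM, with Ckm, Tnnt3, Tnni2 and Myod1 at 0 in both KO groups. Marker levels and group cannot be told apart in this design, and the part of cell makeup in the results below was not tested.

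MYC and MAX bind the E-box CACGTG, and the promoters of the member genes were searched for these letters. The sequence reads the same on both strands, so 1 search covers both, and no other motif was searched. RefSeq promoters on GRCm38.p6, from 250 bases before to 50 bases after each start site, were at hand for 5 members, namely Cdc73, Rtf1, Paf1, Leo1 and Max. The letters stood in 1 of these 5, that of Max, and in 2349 of all 32851 promoters in the same table (7.15%). In the Max promoter they began 3 bases before the start site that the table uses. The RefSeq gene span of Max begins further upstream, and the letters lie inside it. The Max promoter (chr12:76962199-76962498, minus strand) is printed as the member promoter that holds an E-box, with the E-box in capitals. The promoter of Paf1 (chr7:28392746-28393045, plus strand) is printed because Paf1 rose more in KO + LEENE than the other 3 subunits tested, and it has no capitals since the letters are absent from this window.
Max: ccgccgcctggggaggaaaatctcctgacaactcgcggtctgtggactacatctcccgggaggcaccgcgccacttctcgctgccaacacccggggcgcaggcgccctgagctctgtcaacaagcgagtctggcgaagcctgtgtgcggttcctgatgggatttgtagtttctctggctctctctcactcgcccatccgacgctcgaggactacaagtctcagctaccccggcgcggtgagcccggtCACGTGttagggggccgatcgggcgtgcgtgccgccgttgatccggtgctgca
Paf1: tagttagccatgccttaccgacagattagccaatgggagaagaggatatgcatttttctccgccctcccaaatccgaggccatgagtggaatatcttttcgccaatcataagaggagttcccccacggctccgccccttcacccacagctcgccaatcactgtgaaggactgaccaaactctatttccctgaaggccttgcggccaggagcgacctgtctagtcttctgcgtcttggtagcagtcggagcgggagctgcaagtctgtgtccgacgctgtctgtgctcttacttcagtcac

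The members fell into 2 sets by depth. Paf1, Ctr9, Cdc73 and Rtf1 passed the filter on low counts in all 3 groups. Myc passed it through WT + GFP and KO + GFP only. Leo1, Wdr61 and Max stayed at or under 3 reads in each of the 6 libraries and were not tested. Of the 5 members tested, 4 were called in KO + GFP against WT + GFP, 5 in KO + LEENE against KO + GFP, and 4 in KO + LEENE against WT + GFP, beside backgrounds of 70.1%, 67.8% and 70.7% of all genes tested. DESeq2 called 2, 3 and 4 of them beside 37.3%, 36.3% and 35.6% of the genes it tested, and the replicate block 4, 5 and 4 beside 68.2%, 65.6% and 69% of all genes. The shares called with library size only were 73.9%, 74.8% and 72.5%, and with no filter on low counts 24.1%, 21.9% and 22.5%. The groups did not overlap on the TMM scale for 82.2%, 80.3% and 83.6% of all genes. With 5 members tested, none of these counts is a result about the members, whose sizes and directions are given next. In bulk samples, fewer cells of a type and less RNA per cell cannot be told apart for any of these values.

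**Figure D1:**
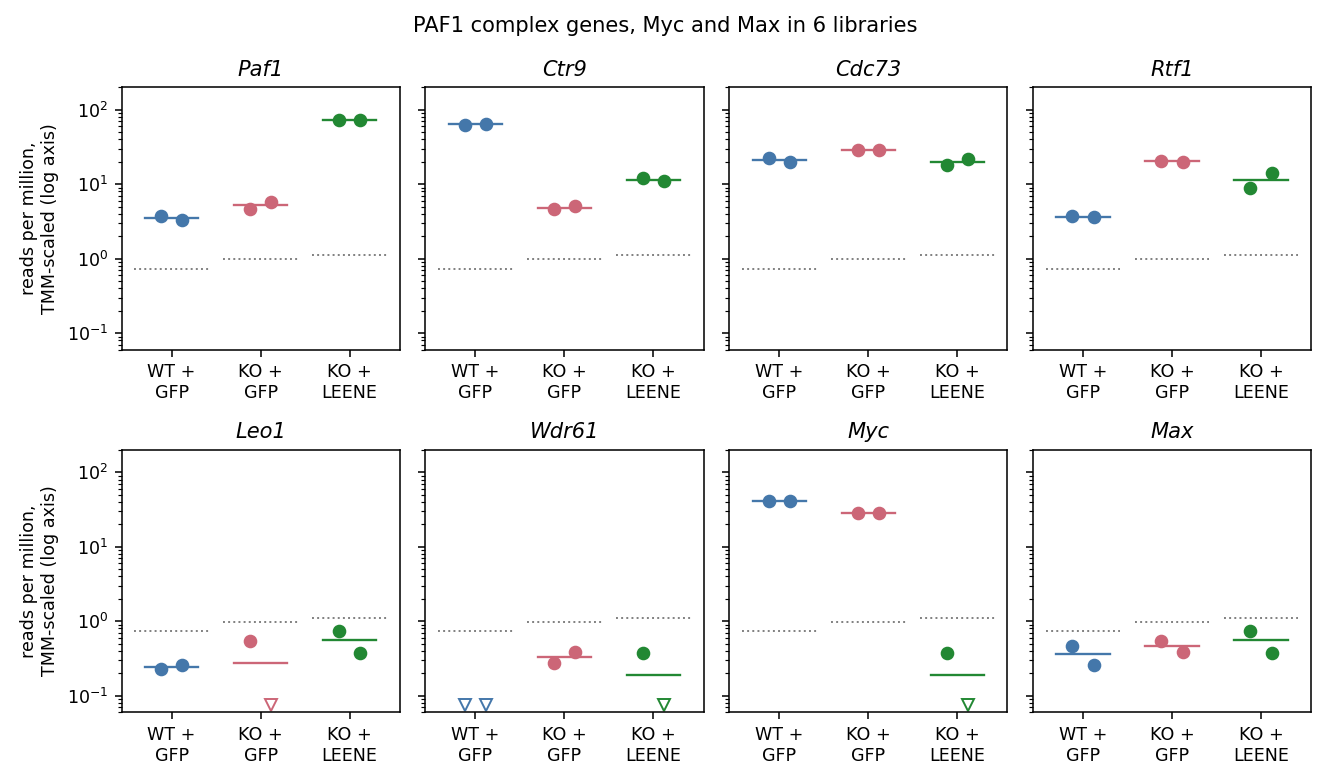
Level of each member in the 6 libraries, in TMM-scaled CPM on a log axis. Points are libraries, short lines the mean of a group (n = 2), dotted lines the level of 3 reads, and open triangles mark libraries with 0 reads. Paf1 is highest in KO + LEENE and Ctr9 in WT + GFP, Myc drops to 1 and 0 reads in KO + LEENE, and Leo1, Wdr61 and Max lie under the dotted lines.

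PAF1 and CTR9 form the core on which the complex is built. Against WT + GFP their genes were called in opposite directions in KO + LEENE, while both rose in KO + LEENE against KO + GFP. Paf1 (ENSMUSG00000003437, chromosome 7, 28392951 to 28399388 on GRCm38, plus strand) had 16 and 13 reads for WT + GFP, 17 and 15 for KO + GFP, then 194 and 199 for KO + LEENE. The KO + LEENE libraries stood apart from the other 4, although their totals were the smallest of the series. On the TMM scale the mean was 3.52 CPM ± 0.271 (SD, n = 2) for WT + GFP, 5.23 ± 0.856 for KO + GFP and 73.1 ± 0.612 for KO + LEENE. In KO + LEENE, Paf1 was 14.2-fold above KO + GFP (log2 fold change 3.83 ± 0.222 SE, adjusted P = 1.236e-58, edgeR) and 20.5-fold above WT + GFP (4.36 ± 0.221, adjusted P = 8.929e-74). These log2 values were larger with library size only, at 4.98 and 5.03. Between KO + GFP and WT + GFP the log2 fold change was 0.53 ± 0.403, with a 95% interval from -0.26 to 1.33 (adjusted P = 0.234). At 13 to 17 reads per library, a difference anywhere in that interval thus remains possible.

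Ctr9 (ENSMUSG00000005609, chromosome 7, 111028951 to 111056377, plus strand) encodes the scaffold subunit that holds the other subunits together. It had 267 and 254 reads for WT + GFP, 17 and 13 for KO + GFP, then 32 and 30 for KO + LEENE. The WT + GFP libraries were far above the rest, and the 3 groups did not overlap. The mean was 63.4 CPM ± 2.17 for WT + GFP, 4.84 ± 0.306 for KO + GFP and 11.5 ± 0.637 for KO + LEENE. In KO + GFP, Ctr9 was 13.1-fold below WT + GFP (log2 fold change -3.71 ± 0.218, adjusted P = 3.664e-57, edgeR). In KO + LEENE it was 2.39-fold above KO + GFP (1.26 ± 0.339, adjusted P = 0.0004028) but remained 5.48-fold below WT + GFP (-2.45 ± 0.188, adjusted P = 8.67e-36). The values for KO + LEENE were 2.41 against KO + GFP and -1.78 against WT + GFP with library size only. Paf1 in KO + LEENE was thus above both other groups, while Ctr9 in KO + LEENE lay between them.

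CDC73, or parafibromin, is a tumor suppressor that links the complex to other regulators. Cdc73 (ENSMUSG00000026361, chromosome 1, 143598800 to 143702893, minus strand) had 97 and 77 reads for WT + GFP, 106 and 75 for KO + GFP, then 49 and 59 for KO + LEENE. On the TMM scale the means were 21.1 CPM ± 1.97, 29 ± 0.239 and 20.1 ± 2.44, and the WT + GFP and KO + LEENE libraries overlapped. The log2 fold change in KO + GFP against WT + GFP was 0.45 ± 0.182 on the TMM scale (adjusted P = 0.019, edgeR) but -0.04 (adjusted P = 0.877) with library size only, so its direction rests on the scaling. In KO + LEENE against KO + GFP it was -0.53 ± 0.202 (adjusted P = 0.01447), and 0.63 (adjusted P = 0.003494) with library size only. Against WT + GFP the KO + LEENE value was -0.07 ± 0.204, with an interval from -0.47 to 0.33 (adjusted P = 0.771), and 0.60 (adjusted P = 0.006382) with library size only. DESeq2 called none of these 3 Cdc73 contrasts (adjusted P from 0.333 to 0.974), and leaving out the first KO + LEENE library ended the call against KO + GFP (-0.36, adjusted P = 0.204). No direction is given for Cdc73. Its exons share 679 bases with B3galt2, on the other strand, with 5 reads or fewer per library, and counting did not use strand.

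RTF1 binds the complex less tightly in mammals and is known to promote ubiquitination of histone H2B. Rtf1 (ENSMUSG00000027304, chromosome 2, 119675068 to 119735407, plus strand) had 16 and 14 reads for WT + GFP, 76 and 51 for KO + GFP, then 24 and 38 for KO + LEENE. Both KO groups lay above WT + GFP on the TMM scale, at means of 20.2 CPM ± 0.591 in KO + GFP and 11.5 ± 3.57 in KO + LEENE against 3.64 ± 0.0906 in WT + GFP. Rtf1 exceeded WT + GFP 5.52-fold in KO + GFP (log2 fold change 2.47 ± 0.289, adjusted P = 1.524e-16, edgeR) and 3.14-fold in KO + LEENE (1.65 ± 0.341, adjusted P = 3.195e-06), or by log2 values of 1.98 and 2.32 with library size only. Between the KO groups the value was -0.81 ± 0.250 on the TMM scale (adjusted P = 0.001977) and 0.34 (adjusted P = 0.221) with library size only, so this direction too rests on the scaling. Without the first KO + LEENE library it was -0.48 (adjusted P = 0.147). Rtf1 and Ctr9 therefore differed from WT + GFP in opposite directions in both KO groups, a description that held under each alternative tried.

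**Figure D2:**
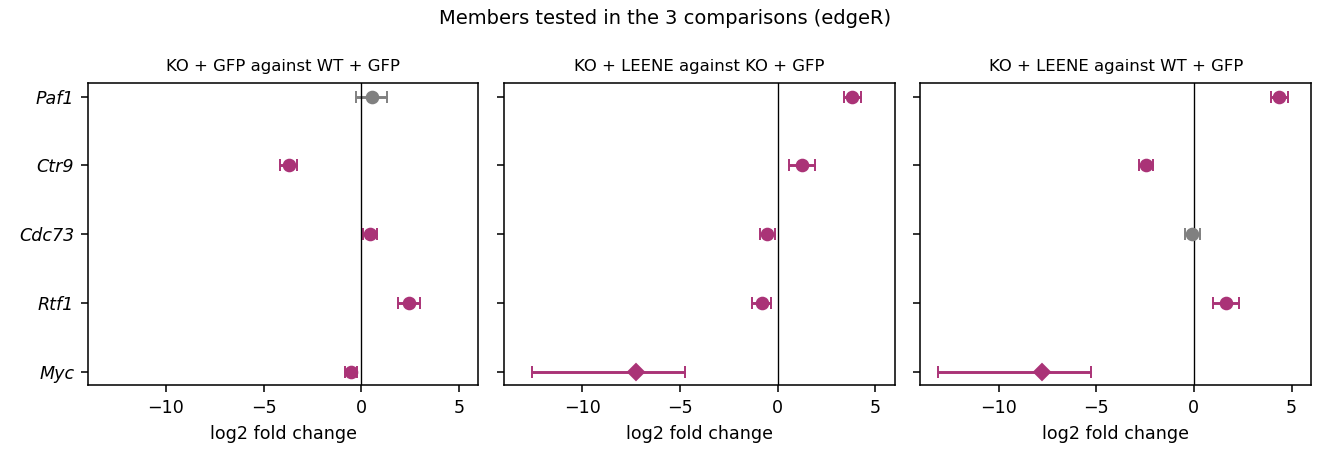
Log2 fold changes of the 5 tested members in the 3 comparisons. Circles are edgeR estimates with 95% intervals. Diamonds for Myc are ratios of summed reads with exact counting intervals, since KO + LEENE held 1 read. Purple marks an adjusted P under 0.05 and grey the rest. Paf1 is to the right in both KO + LEENE comparisons and Ctr9 is to the left in both comparisons with WT + GFP.

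LEO1, the subunit the study singled out, and WDR61, a repeat protein shared with the SKI complex of RNA decay, were barely represented. Leo1 (ENSMUSG00000042487, chromosome 9, 75441524 to 75466432, plus strand) had 1 and 1 read for WT + GFP, 2 and 0 for KO + GFP, then 2 and 1 for KO + LEENE. Summed over a group this came to 0.231 CPM for WT + GFP (exact Poisson 95% interval 0.028 to 0.834), 0.217 for KO + GFP (0.0262 to 0.783) and 0.842 for KO + LEENE (0.174 to 2.46), on library size. These intervals overlap and cover counting error only, so a difference in Leo1 between the groups was not detectable at this depth. Leo1 shares 112 exon bases with an unnamed gene on the other strand (ENSMUSG00000097298), which had at most 1 read in a library.

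Wdr61 (ENSMUSG00000061559, chromosome 9, 54714735 to 54734519, minus strand) had 0 and 0 reads for WT + GFP, 1 and 1 for KO + GFP, then 1 and 0 for KO + LEENE. The 0 reads in WT + GFP allow up to 0.426 CPM (exact Poisson), and the summed levels of 0.217 CPM in KO + GFP and 0.281 in KO + LEENE are under that limit. Its counted exons overlap 1581 bases of Dnaja4, a chaperone gene on the other strand that counted 12 and 9, then 91 and 63, then 24 and 23 reads in the 3 groups. The overlap lies wholly in the 2418 bases by which the Ensembl gene runs past the 3' end given by RefSeq. A read falling there would be given to neither gene by counting without strand, a limit that matters most for libraries made from 3' ends, and how many reads this took was not tested. With no filter on low counts, adjusted P of Leo1, Wdr61 and Max ran from 0.548 to 1 over the 3 comparisons.

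The balance of reads within the complex differed between groups. Of the reads on the 6 subunit genes, Ctr9 held 69% ± 2.47 (SD, n = 2) for WT + GFP, 8.08% ± 0.442 for KO + GFP and 9.89% ± 1.01 for KO + LEENE. Paf1 held 3.83% ± 0.289, 8.72% ± 1.35 and 62.6% ± 2.39. Cdc73 held 22.9% ± 2.11, 48.4% ± 0.0104 and 17.1% ± 1.29, and Rtf1 held 3.97% ± 0.0923, 33.8% ± 1.27 and 9.78% ± 2.6. The gene with the most reads was therefore Ctr9 in WT + GFP, Cdc73 in KO + GFP and Paf1 in KO + LEENE. These shares do not depend on the scaling between libraries. They do depend on gene length, since per kb of exon Rtf1 (46.2%) and not Cdc73 (21.6%) led in KO + GFP. Summed over the 6 genes, the level was 92 and 91.8 CPM for WT + GFP, 59.6 and 60.3 for KO + GFP, then 113.2 and 120.9 for KO + LEENE on the TMM scale. With library size only the sums were 87.5 and 87, 39.1 and 42.8, and 170.5 and 182.5 CPM, in the same order.

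**Figure D3:**
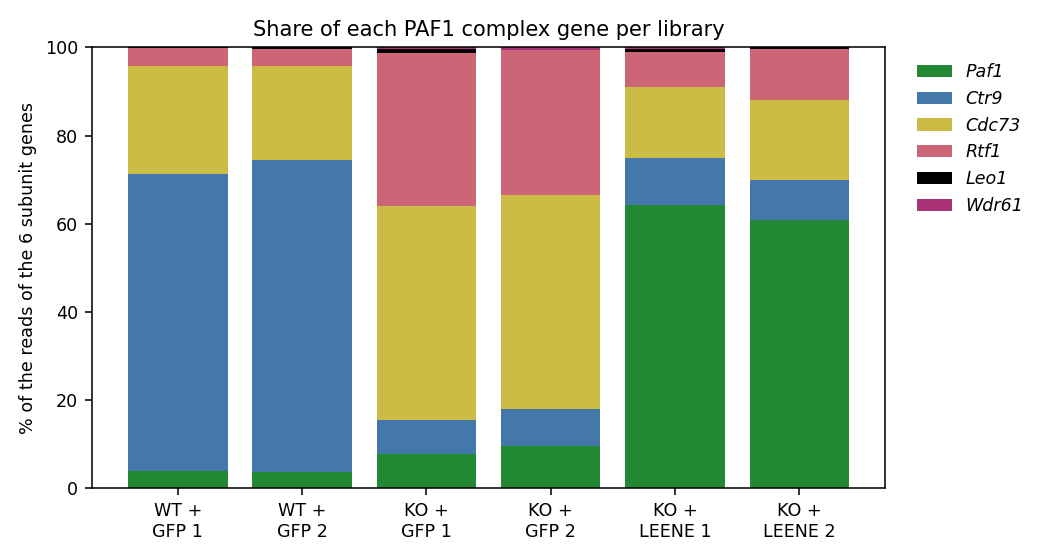
Share of the reads of the 6 PAF1 complex genes held by each gene, in % per library (stacked bars, 1 bar per library). Ctr9 leads in both WT + GFP libraries, Cdc73 in both KO + GFP libraries and Paf1 in both KO + LEENE libraries, and Leo1 and Wdr61 together stay under 2% in all 6.

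Myc (ENSMUSG00000022346, chromosome 15, 61985341 to 61990374, plus strand) had 177 and 159 reads for WT + GFP, 104 and 74 for KO + GFP, then 1 and 0 for KO + LEENE. Both KO + LEENE libraries lay under the 3-read limit, and the groups did not overlap on the TMM scale. The mean was 40.8 CPM ± 0.257 (SD, n = 2) in WT + GFP and 28.5 ± 0.349 in KO + GFP. Myc in KO + GFP was 1.43-fold below WT + GFP (log2 fold change -0.52 ± 0.161, adjusted P = 0.002089, edgeR). With library size only the log2 value was -1.01 (adjusted P = 1.653e-10, edgeR), and DESeq2 did not call this difference in Myc (-0.58, adjusted P = 0.135). In KO + LEENE it was lower than in KO + GFP by a ratio of 153 on the TMM scale, with an exact counting interval from 27.1 to 6080. Against WT + GFP the ratio was 220, with an interval from 39.1 to 8700. With library size only the ratios were 68.7 (12.2 to 2730) and 138 (24.6 to 5470). Without the second KO + LEENE library they were 76 (13.5 to 3020) and 109 (19.4 to 4320) on the TMM scale, and without the first, which held the only read, Myc was at least 25.7-fold and at least 36.8-fold lower. Because Myc passed the filter through the groups where it was high, the test of these drops is given with no filter on low counts, where edgeR gave adjusted P = 1.082e-36 against KO + GFP and 5.652e-58 against WT + GFP. In these same 2 libraries Paf1 had 194 and 199 reads. Myc was thus further from the WT + GFP level in KO + LEENE than in KO + GFP.

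MAX is the partner that MYC needs to bind DNA. Max (ENSMUSG00000059436, chromosome 12, 76937269 to 76962248, minus strand) had 2 and 1 reads in each of the 3 groups. Summed over a group its level was 0.346 CPM for WT + GFP (exact Poisson interval 0.0714 to 1.01), 0.325 for KO + GFP (0.067 to 0.95) and 0.842 for KO + LEENE (0.174 to 2.46), so no difference was detectable at this depth. Neither Myc nor Max shares exon bases with another gene in the deposited coordinates.

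Levels of different genes are set side by side per length here, as a description only. Reads from 3' ends need not scale with length, so the order could differ on another scale, and on the TMM scale without division by length Ctr9 (63.4 CPM) and not Myc (40.8 CPM) led in WT + GFP. In CPM per kb of exon, on library size, Myc (14 ± 0.127 SD, n = 2) and Ctr9 (9.20 ± 0.288) led in WT + GFP, followed by Cdc73 (1.14 ± 0.11), Paf1 (0.971 ± 0.0776) and Rtf1 (0.604 ± 0.0168). The counting intervals of Cdc73 and Paf1 overlapped there, as did those of Paf1 and Rtf1 and those of Rtf1 and Max. Max (0.170), Leo1 (0.106) and Wdr61 (0) came last with overlapping intervals. In KO + GFP Myc (7.04 ± 0.472) was still first, ahead of Rtf1 (2.41 ± 0.0622), while Cdc73 (1.13 ± 0.0714) and Paf1 (1.04 ± 0.227) did not differ beyond their spread and Ctr9 stood at 0.506 ± 0.0596. In KO + LEENE Paf1 (32.1 ± 0.318) was first, Rtf1 (3.03 ± 0.945) and Ctr9 (2.66 ± 0.143) did not differ beyond their spread, Cdc73 followed at 1.73 ± 0.212, and Myc (0.102) was among the lowest.

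Likeness to the Myc pattern was measured as the root mean square difference of centred log2 CPM over the 6 libraries, among 2800 genes with a mean of at least 20 CPM. The log2 CPM carried a prior count of 2 reads, which sets the value of Myc in KO + LEENE, where it had 1 and 0 reads. The nearest genes were then Dlg1, a scaffold of cell junctions (0.092), Itch, a ubiquitin ligase (0.177), and Rpl37rt, a copy of a ribosomal protein gene (0.237). Dlg1 had 2819 and 2598 reads for WT + GFP, 1529 and 1078 for KO + GFP, then 41 and 21 for KO + LEENE. Itch counted 1361 and 1262, then 824 and 492, then 13 and 9 reads, and Rpl37rt, whose reads may be shared with the parent gene, had 673 and 626, 311 and 201, and 5 and 3. With a prior count of 0.5 or 5, tried after seeing the data, 0 of these 3 genes stayed among the nearest 3, and Dlg1 ranked 16 and 39. No gene is therefore called most like Myc. The 3 genes share with Myc the libraries, their depth and a low level in KO + LEENE. No such list was made for Leo1, which was not tested.

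Outside the members, 70 genes of 7 related lists were tested. Only 22 of them were over the cutoff of the count filter in all 3 groups, and 47 were over it in 1 or 2 groups, so many entered through the group where they were high. With no filter 8 of their 161 calls were lost, and the counts and medians of the lists are descriptions.

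The other members of the network around MAX compete with MYC for MAX or act beside it. Of 11 such genes 5 were tested, and Mycn, Mycl, Mxd3, Mnt, Mlx and Mlxipl were too low. In KO + GFP against WT + GFP 1 rose and 3 fell, beside 34.2% of all genes tested higher and 35.9% lower. Mga, which encodes a MAX partner of a noncanonical repressor complex, had 20 and 20 reads for WT + GFP, 312 and 166 for KO + GFP, then 12 and 11 for KO + LEENE. It rose in KO + GFP (log2 fold change 3.95 ± 0.201, adjusted P = 8.592e-74, edgeR) and fell in KO + LEENE against KO + GFP (-4.14 ± 0.234, adjusted P = 3.69e-61). Mxi1, Mxd4 and Mlxip, which were named after their values were seen, were the 3 called lower in KO + GFP. Mxi1 and Mxd4 passed the filter through WT + GFP and KO + LEENE only. With no filter the log2 fold change was -2.53 ± 0.37 for Mxi1 and -3.12 ± 0.335 for Mxd4. Mlxip went from 2 and 6 reads to 0 and 0, a level at least 1.01-fold lower, so the size of its difference is not known. In KO + LEENE against KO + GFP 4 rose (Mxd1, Mxi1, Mxd4 and Mlxip) and Mga fell, beside 32.8% and 34.9% of all genes. Mxd1 and Mlxip passed the filter through KO + LEENE only, and with no filter their adjusted P by edgeR was 2.594e-05 and 6.189e-84. Mlxip, a glucose-responsive partner of MLX, had 142 and 160 reads there, at least 56.7-fold above KO + GFP. Against WT + GFP 2 rose, 1 fell and 2 were not called, beside 33.9% and 36.9%. With library size only the count against WT + GFP was 3 and 1, beside 43.5% and 29.1%. The list's median log2 fold change was -2.45, 2.34 and -0.11 in the 3 comparisons, and the last was 0.56 with library size only. In the first it was -1.23 with Mlxip at its bound and without Mxd1, which had at most 2 reads in each library of both groups.

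Of 11 cofactors and regulators of MYC, 7 were tested. In KO + GFP 1 rose and 4 fell, beside 34.2% of all genes higher and 35.9% lower. In KO + LEENE against KO + GFP 4 rose and 1 fell, beside 32.8% and 34.9% (5 and 0 with library size only, beside 50.3% and 24.6%). Against WT + GFP 3 rose and 3 fell, beside 33.9% and 36.9% (3 and 2, beside 43.5% and 29.1%). The medians were -1.94, 1.75 and 1.14, against -1.57, 0.29 and -0.41 over the 9 genes DESeq2 tested, so the sign of the last is not settled. Huwe1, a ubiquitin ligase that acts on MYC and its partners, had 678 and 664 reads for WT + GFP, 9 and 10 for KO + GFP, then 179 and 206 for KO + LEENE. Huwe1 passed the filter through WT + GFP and KO + LEENE only. With no filter it fell in KO + GFP (log2 fold change -5.81 ± 0.159, adjusted P = 3.409e-289, edgeR). Its no-filter value in KO + LEENE was 4.67 ± 0.204 against KO + GFP and -1.14 ± 0.084 against WT + GFP. Skp2, the substrate adaptor of a ligase that ubiquitinates MYC, counted 6 and 5, then 1 and 1, then 941 and 1005 reads. Its ratio in KO + LEENE against KO + GFP was 1130 with an exact counting interval from 313 to 9350, and against WT + GFP, with no filter since Skp2 passed it through KO + LEENE only, the log2 fold change was 8.09 ± 0.163.

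**Figure D4:**
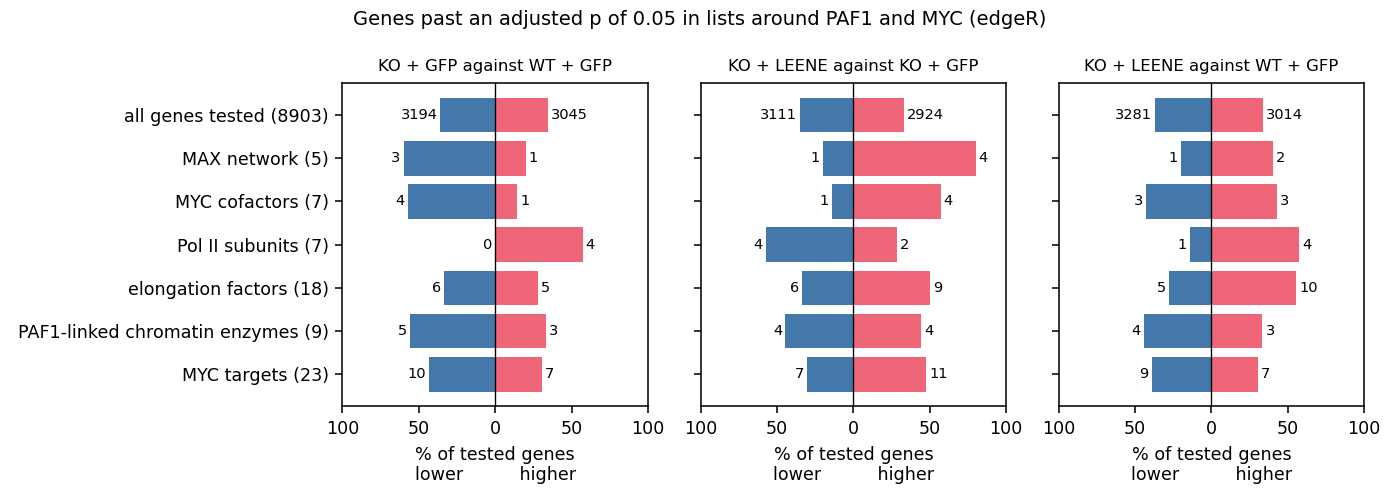
Percent of the tested genes of each list that were higher (red, right) or lower (blue, left) at an adjusted P under 0.05 in each comparison, with the counts beside the bars, the number tested in brackets and all genes tested at the top. Most lists have calls in both directions, and the Pol II list has 4 higher and 0 lower in KO + GFP against WT + GFP (4 and 1 with library size only).

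RNA polymerase II is the enzyme the complex rides on. Of its 12 subunit genes 7 were tested. In KO + GFP 4 rose and 0 fell by edgeR, with 0 lower also at an unadjusted P under 0.05 and by DESeq2, beside 34.2% and 35.9% of all genes tested (4 and 1 with library size only, beside 29.6% and 44.2%). In KO + LEENE against KO + GFP 2 rose and 4 fell, beside 32.8% and 34.9% (3 and 3, beside 50.3% and 24.6%). Against WT + GFP 4 rose and 1 fell, beside 33.9% and 36.9% (4 and 0, beside 43.5% and 29.1%). Polr2a, the largest subunit, counted 185 and 179, then 163 and 104, then 77 and 43 reads. It was lower in KO + LEENE than in KO + GFP by a log2 fold change of -0.93 ± 0.178 on the TMM scale (adjusted P = 4.461e-07), while with library size only the value was 0.22 (adjusted P = 0.255). Polr2b, the second subunit of the catalytic core, counted 2 and 0, then 21 and 15, then 991 and 1021 reads. Its log2 fold change in KO + LEENE against KO + GFP was 6.01 ± 0.144, and against WT + GFP its ratio was 1540 with a counting interval from 426 to 12700. Polr2j was at 0 in both WT + GFP libraries, against 578 and 372 reads for KO + GFP, which is at least 206-fold higher, then 2 and 5 for KO + LEENE. Subunits of the enzyme thus differed in direction in KO + LEENE against KO + GFP, on both scales. Polr2j shares 176 exon bases with Lrwd1 and Polr2b 85 with Igfbp7, both on the other strand.

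The next list, named elongation factors, joined factors of polymerase pausing, the elongation kinase P-TEFb with its regulators, and other elongation factors. Of 25 genes 18 were tested. In KO + GFP 5 rose and 6 fell (5 and 8 with library size only), in KO + LEENE against KO + GFP 9 rose and 6 fell (11 and 4), and against WT + GFP 10 rose and 5 fell (10 and 4). The shares of all genes higher and lower were 34.2% and 35.9%, 32.8% and 34.9%, and 33.9% and 36.9% in these comparisons, and 29.6% and 44.2%, 50.3% and 24.6%, and 43.5% and 29.1% with library size only. Hexim1, the inhibitor of the elongation kinase P-TEFb, counted 2 and 1, then 3 and 1, then 1335 and 1396 reads, a ratio of 794 (310 to 2920) in KO + LEENE against KO + GFP. Ccnt1, the cyclin of P-TEFb, counted 23 and 16, then 2 and 3, then 276 and 248 reads, a ratio of 122 (51.9 to 377) in the same comparison. Its exons share 695 bases with 9330020H09Rik on the other strand, which counted 97 and 119, then 0 and 0, then 1 and 1 reads. Ell, a factor of the super elongation complex, had 2446 and 2185 reads for WT + GFP, 2 and 6 for KO + GFP, then 3 and 4 for KO + LEENE, and passed the filter through WT + GFP only. With no filter its log2 fold change against WT + GFP was -8.82 ± 0.175 in KO + GFP and -8.67 ± 0.181 in KO + LEENE. Aff4, the scaffold of that complex, counted 10 and 10, then 488 and 295, then 199 and 197 reads. It passed the filter through KO + GFP and KO + LEENE only, and with no filter it rose in KO + GFP by 5.58 ± 0.175. Against KO + GFP its value in KO + LEENE was -0.76 ± 0.110 on the TMM scale and 0.40 with library size only. Cdk12 and Cdk13, related kinases of the polymerase tail, differed in direction. Cdk12 counted 452 and 391, then 403 and 215, then 18 and 20 reads, and fell in KO + LEENE (log2 fold change -3.79 ± 0.188 against KO + GFP and -3.85 ± 0.181 against WT + GFP). Cdk13 counted 22 and 33, then 20 and 11, then 561 and 637 reads, and rose by 5.05 ± 0.147 against WT + GFP. Ccnt2, an alternative cyclin of P-TEFb, rose in KO + GFP by 1.12 ± 0.115.

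The PAF1 complex is best known for its tie to histone H2B ubiquitination and to methylation of histone H3, and 9 of 10 genes for the enzymes of these marks were tested. In KO + GFP 3 rose and 5 fell, in KO + LEENE against KO + GFP 4 rose and 4 fell, and against WT + GFP 3 rose and 4 fell, counts that library size only gave as well. Among all genes 34.2%, 32.8% and 33.9% were higher and 35.9%, 34.9% and 36.9% lower. Ube2a and Ube2b, the ubiquitin conjugases for H2B, were both low in the KO groups. Ube2a had 377 and 312 reads for WT + GFP, 1 and 0 for KO + GFP, then 1 and 1 for KO + LEENE. Ube2b counted 1036 and 880, then 58 and 39, then 10 and 10 reads, with log2 fold changes of -3.90 in KO + GFP and -5.95 ± 0.175 in KO + LEENE against WT + GFP. Rnf20, the ligase that works with them and binds the complex, counted 4 and 9, then 67 and 44, then 2 and 1 reads, the reverse order in KO + GFP, and was named after its values were seen. Kmt2a, a methyltransferase for lysine 4 of H3, counted 320 and 320, then 82 and 45, then 4832 and 4569 reads, a log2 fold change of 6.44 ± 0.148 in KO + LEENE against KO + GFP and 4.49 ± 0.126 against WT + GFP. Dot1l, which methylates lysine 79, counted 1067 and 1019, then 3 and 4, then 26 and 18 reads. It passed the filter through WT + GFP and KO + LEENE only, and with no filter it fell in KO + GFP (-7.86 ± 0.177). Setd1b, another lysine 4 enzyme, counted 32 and 27, then 243 and 142, then 38 and 34 reads and rose in KO + GFP by 3.09 ± 0.194. Of the SKI complex, which shares WDR61, only Ttc37 was tested, with 93 and 106, 214 and 146, and 32 and 33 reads. It rose in KO + GFP by 1.25 ± 0.151 and fell in KO + LEENE against KO + GFP (-2.25 ± 0.194).

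MYC activates genes of ribosome production and cell growth, and 57 known targets were taken as a list, of which 23 were tested. Their promoters held CACGTG in 16 of 57 (28.1%), beside 7.15% of all promoters. In KO + GFP 7 rose and 10 fell (5 and 13 with library size only), in KO + LEENE against KO + GFP 11 rose and 7 fell (13 and 5), and against WT + GFP 7 rose and 9 fell (12 and 8). For all genes tested the splits were 3045 and 3194, 2924 and 3111, and 3014 and 3281, which became 2639 and 3937, 4474 and 2189, and 3869 and 2588 with library size only. The list's median log2 fold change was -0.42, 0.40 and 0.11 on the TMM scale. It was -0.91, 1.56 and 0.78 with library size only, and -0.16, 0 and 0.14 over the 35 genes DESeq2 tested. The last TMM median was -0.002 without the 1 gene at or under 3 reads per library in both groups and with the 2 genes at 0 in 1 group at their bound, and the signs of the medians in both KO + LEENE comparisons are not settled. Mphosph10, a nucleolar protein of ribosomal RNA processing, counted 1095 and 1054, then 2 and 1, then 12 and 8 reads, and fell in KO + GFP with a ratio of 544 (186 to 2640). Plk1, a kinase of mitosis, had 257 and 258 reads for WT + GFP and none for KO + GFP, at least 63.3-fold lower, then 4 and 3 for KO + LEENE. Gnl3 (nucleostemin) counted 590 and 480, then 452 and 306, then 61 and 47 reads and fell in KO + LEENE against KO + GFP (log2 fold change -2.59 ± 0.141), as did Hspd1, a mitochondrial chaperone with 476 and 464, 509 and 321, and 32 and 34 reads (-3.43 ± 0.155). Gnl3 and Hspd1 thus shared with Myc a drop in KO + LEENE. Wdr43, which acts in ribosome assembly, went the other way, with 102 and 91, 233 and 150, and 359 and 363 reads and a rise against WT + GFP of 1.38 ± 0.142 in KO + GFP and 2.52 ± 0.125 in KO + LEENE. Pa2g4 counted 115 and 109, then 269 and 179, then 61 and 74 reads and rose in KO + GFP by 1.39 ± 0.139. Cbx3, a heterochromatin protein, counted 90 and 76, then 192 and 118, then 81 and 103 reads and was 0.76 ± 0.179 higher on the log2 scale in KO + LEENE than in WT + GFP.

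The endothelial genes the study tied to LEENE, LEO1 and MYC were set beside the members. Kdr, the main VEGF receptor, counted 808 and 708, then 13 and 9, then 47 and 41 reads. It passed the filter through WT + GFP and KO + LEENE only, so its log2 fold changes with KO + GFP are descriptions. They were -5.69 ± 0.179 in KO + GFP against WT + GFP and 2.21 ± 0.319 in KO + LEENE against KO + GFP. In KO + LEENE against WT + GFP the Kdr value was -3.49 (-2.82 with library size only). Pgf, a VEGF family ligand, counted 696 and 617, then 242 and 176, then 246 and 294 reads. Its log2 fold change was -1.25 ± 0.0979 in KO + GFP, and in KO + LEENE 0.59 ± 0.111 against KO + GFP and -0.67 ± 0.0935 against WT + GFP (0.003, not called, with library size only). Nos3, the endothelial nitric oxide synthase, had 19 and 8 reads for WT + GFP, 6 and 8 for KO + GFP, then 5 and 2 for KO + LEENE. Its exons share 1040 bases with Gm15587 and 294 with Atg9b, both on the other strand. Its values were -0.54 and -0.77 in the first and second comparison, neither called, and -1.31 (adjusted P = 0.04846, edgeR) in KO + LEENE against WT + GFP, a call lost with library size only (-0.65) and with no filter (-1.26). Kdr and Ctr9 had the same order of groups, while Kdr and Myc differed in that Kdr was higher and Myc lower in KO + LEENE than in KO + GFP. These orders describe the named pairs only and were not set against all genes. The part of LEO1 or MYC in them was not tested.

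**Figure D5:**
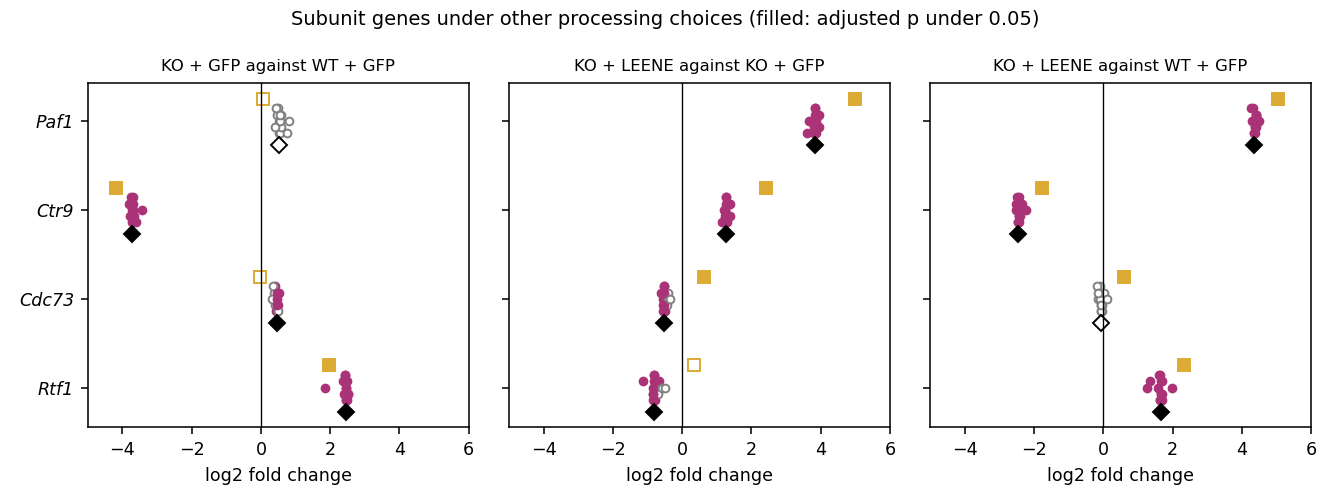
Log2 fold changes of the 4 tested subunit genes under each processing alternative. Black diamonds are the values reported, gold squares use library size only, and circles are the other alternatives (other size factors, filters, tests, thinning, the replicate block and each library left out), with filled marks for an adjusted P under 0.05. Ctr9 keeps its side of 0 in each comparison and Paf1 stays above 0, while Cdc73 crosses 0 in each comparison, and Rtf1 does in KO + LEENE against KO + GFP with library size only.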

How the data were processed

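RNA was reverse transcribed and libraries were made with a 3' gene expression kit without its droplet step, per the labels. The authors aligned reads with STAR (2.5.4b in the submitters' processing notes, which name mm10) and counted uniquely aligned reads over exons of Ensembl release 84 on GRCm38 with featureCounts 2.0.0, strand setting 0, so the deposited values are raw read counts per gene with no molecular identifiers collapsed. A read that overlaps exons of more than 1 gene is left uncounted by default. The study's methods name mm9, TPM and DESeq2 instead, and the build of the file headers was used here. Gene names were matched by identifier for 43465 of 47729 genes.

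Groups came from sample titles. The counts as deposited entered quasi-likelihood tests in edgeR 4.0.16 (limma 3.58.1, R 4.3.3) in 1 fit of all 6 libraries with TMM scaling and no covariates, after filterByExpr (minimum count 10, minimum total 15, 8903 genes kept), with Benjamini-Hochberg adjustment over those genes in each comparison. Each SE was taken from the F value of the test, as the log2 fold change over its square root. The detection limit was 3 reads per library. A fold against a group with 0 reads in both libraries is a bound against that limit, and one against 1 to 3 reads is a ratio of summed reads with an exact 95% binomial interval. Intervals cover counting error only. With 2 libraries against 2 an exact permutation test cannot go below 0.333, so none was run. Scripts were tested on simulated data.

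The members and gene lists were chosen with earlier results of these data known. Named genes were all members, Kdr, Nos3 and Pgf, genes whose exons overlap a member, the 3 genes nearest to Myc, and for each list and comparison up to 2 rises and 2 falls of largest size among called genes whose mean reached 20 CPM and whose groups did not overlap. Alternatives were DESeq2 size factors, library size only, DESeq2 1.42.0, only the 4 libraries compared, other filters, the replicate numbers of the titles as a block, no mitochondrially encoded genes, thinning to the smallest total, leaving out each replicate, shares per kb of exon and, added after seeing the data, other prior counts in the likeness to Myc.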

Additional observations from a re-analysis of the deposited data

How the results depend on the processing

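Paf1 and Ctr9 kept their direction and their side of the threshold in all 3 comparisons under each alternative tried, as did Rtf1 against WT + GFP in both KO groups. Myc did so in both KO + LEENE comparisons under each alternative but the filter of at least 10 reads in every sample, which removed it. With library size only, Cdc73 turned to -0.035, 0.63 and 0.60 (log2, in KO + GFP against WT + GFP, KO + LEENE against KO + GFP and KO + LEENE against WT + GFP), Rtf1 turned to 0.34 in KO + LEENE against KO + GFP, and Ttc37 was no longer called against WT + GFP (0 SKI complex genes). DESeq2 gave 0.40 and -0.42 for Cdc73 in the first and second comparison, -0.58 for Myc in the first and -0.71 for Rtf1 in the second, none called, with 2 and 3 members called and 2 MYC cofactors called in the first. With no filter on low counts Cdc73 was 0.37 and -0.39, and thinned to the smallest total 0.32 and -0.40, none called; thinning gave -0.59 for Rtf1 in the second comparison, not called, and 3 members called beside 71.6% of all genes. Leaving out 1 replicate gave 0.34 to 0.53, -0.61 to -0.36 and -0.17 to 0.094 for Cdc73 in the 3 comparisons, -1.12 to -0.48 for Rtf1 and 3 to 5 members called in the second, beside 56.8% to 63.4% of all genes. For Myc the fitted value ran from -9.61 to -6.07 in the second comparison and from -10.13 to -6.59 in the third, lowest without the first KO + LEENE library and highest without the second. The call of Cdc73 in the first was lost without the second WT + GFP library (0.34) or the first KO + GFP library (0.48), its sign in the third turned without the first WT + GFP library (0.008) or the first KO + LEENE library (0.094), and without the latter 3 members were called in the second. The cause of these changes was not tested, beyond the fewer reads or libraries in the settings that remove them. Per kb of exon, the shares of PAF1 complex reads in WT + GFP, KO + GFP and KO + LEENE were 0.878%, 1.63% and 0.970% for Leo1, 8.08%, 19.9% and 80.3% for Paf1, 76.5%, 9.68% and 6.67% for Ctr9, and 9.5%, 21.6% and 4.32% for Cdc73, with 5.02% and 46.2% for Rtf1 in WT + GFP and KO + GFP and 0.925% for Wdr61 in KO + GFP.

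The replicate numbers of the titles did not pair the libraries (correlations of deviations from the group means 0.014 to 0.031). With the number as a block 6072, 5841 and 6147 genes were called in the 3 comparisons, no call of a member changed, and the values for Ctr9 were -3.71, 1.25 and -2.45. With a prior count of 0.5 or 5 in place of 2, chosen after seeing the data, 0 of the 3 genes nearest to Myc were kept. Depth limits what can be said of Leo1, Wdr61 and Max, which had at most 2 reads in a library.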
